A study of Mus musculus with 8 samples.

Results

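The nuclear genes of the mitochondrial respiratory chain were examined in 8 RNA-seq libraries of E14, an embryonic stem cell line from mouse. Members were the protein-coding genes whose GENCODE symbols begin with Nduf, Sdha, Sdhb, Sdhc, Sdhd, Uqcr, Cox4, Cox5, Cox6, Cox7, Cox8 or Atp5, which gave 98 of the 54232 genes counted. By name, 46 belonged to complex I, 8 to complex II, 8 to complex III, 18 to complex IV and 18 to complex V. Structural subunits made up 84 of the 98. The other 14 carried such a name without being a structural subunit: 12 assembly factors named Ndufaf or Sdhaf, Atp5s, and Ndufa4l2, a paralogue of the subunit gene Ndufa4. Atp5o was listed under 2 Ensembl identifiers, and the second was at 0 counts in every library. A further 13 genes with these name starts were not protein-coding and were left out.

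The libraries formed 4 groups of 2. Ssrp1_KO cells were cells in which Ssrp1, a subunit of the histone chaperone FACT, was cut by Cas9 directed by a guide RNA, and Ssrp1_Control cells carried the genotype label control. Usp7_KD cells had received 1000 ng of a pSuper puro plasmid with an shRNA against Usp7, a deubiquitinase, followed 24 h later by puromycin at 1 ug/ml for 3 days, and Usp7_Control cells were again labelled control. All groups shared the strain label 12910la and grew on gelatin in serum medium with 15% FBS and 10 ng/ml LIF. The labels do not say whether the knockout was 1 clone, what the control cells of either experiment had been transfected with, or whether the replicates were grown as separate cultures. The p-values therefore reflect only how far these libraries spread, which may be technical.

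Total counts ranged from 15879056 to 18361130 per library. Ssrp1 itself had 399.6 and 119.7 CPM (counts scaled to library size) in the libraries labelled Ssrp1_KO, against 423.2 and 460 CPM in Ssrp1_Control, so the first library labelled knockout was close to the controls in this transcript. Usp7 had 117 and 128 CPM in Usp7_KD, against 386 and 381 CPM in Usp7_Control. The 10 embryonic stem cell markers summed to 8450 and 7845 CPM in Ssrp1_KO against 10490 and 8570 CPM in Ssrp1_Control. They summed to 5994 and 5681 CPM in Usp7_KD against 7864 and 6606 CPM in Usp7_Control, and none of them was called. In the Usp7 comparison 3 were lower and 0 higher at an unadjusted p under 0.05 in edgeR's quasi-likelihood test, beside 7.18% and 9.52% of all genes. Both knockdown libraries lay below both controls in 6 of the 10 and above both in 1, beside 23.4% and 24.6% of all genes. The 10 fibroblast markers summed to 22.8 and 40.99 CPM in Ssrp1_KO, against 19.5 and 20.8 CPM in Ssrp1_Control, and to 11.7 to 20.2 CPM in the Usp7 experiment. Most of the fibroblast sum was Thy1, while Dcn, Lum, Postn and Twist2 were at or near 0. The 8 heart and skeletal muscle markers summed to 7.05 to 15.2 CPM over all libraries. The part of these markers in the results was not tested. In bulk RNA, fewer cells of a type and less RNA per cell cannot be told apart.

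The respiratory chain sits in the inner mitochondrial membrane. Complex I takes electrons from NADH and complex II from succinate, complex III passes them by way of ubiquinone to cytochrome c, complex IV hands them to oxygen, and complex V, the ATP synthase, uses the resulting proton gradient to make ATP. Most subunits are encoded in the nucleus and imported, but the mitochondrial genome encodes core subunits of all complexes except complex II, so the complexes need transcripts from both genomes. Pluripotent stem cells are known for drawing much of their ATP from glycolysis while keeping a working respiratory chain.

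Levels were compared between genes per exon length, as reads per kilobase of exon scaled to library size (RPKM) averaged over the 8 libraries. The length was that of all annotated exons of a gene together, which can far exceed 1 transcript. For Uqcrc1 it was 4135 bp, against 1653 bp for its longest coding transcript, and for Uqcrh 1237 against 547 bp. The order of genes below holds for this length only, and levels per transcript were not computed. The median subunit had 57.5 RPKM, 79 of the 84 subunits had at least 1 RPKM and 21 had at least 100. The highest levels belonged to the catalytic head of complex V, with 630.5 RPKM for Atp5b (beta subunit) and 491 RPKM for Atp5a1 (alpha subunit). Complex IV followed with Cox8a at 428 RPKM and Cox6a1 at 426 RPKM, 2 small subunits of the cytochrome c oxidase. Complex III was led by Uqcr10 at 173 RPKM and Uqcrfs1, the Rieske iron-sulfur protein, at 115 RPKM. Complex II was led by the membrane anchor Sdhd at 125 RPKM and by Sdha, the flavoprotein, at 61.9 RPKM. Subunits placed in complex I by name ran from Ndufb11 at 117 RPKM and Ndufa4 at 116 RPKM to Ndufb2 at 0.735 RPKM.

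Where a subunit has tissue-specific paralogues, the widely expressed form was the higher of the pair in E14 cells. Cox4i1 had 277 RPKM and Cox4i2, the lung form, had 5.08 RPKM. Cox6a1 had 426 RPKM, against 0.111 RPKM for the heart and muscle form Cox6a2. Cox8a had 428 RPKM, while Cox8b and Cox8c had 0.0440 and 2.68 RPKM. Cox7a2 had 109.5 RPKM and the muscle form Cox7a1 had 16.4 RPKM, and the supercomplex factor Cox7a2l had 92.9 RPKM. Cox6b1 had 160 RPKM beside 43.5 RPKM for its testis form Cox6b2, and Cox7b had 150.2 RPKM beside 0.293 RPKM for the testis form Cox7b2. Cox6b2 stood closest to its widely expressed form among these pairs.

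**Figure D1:**
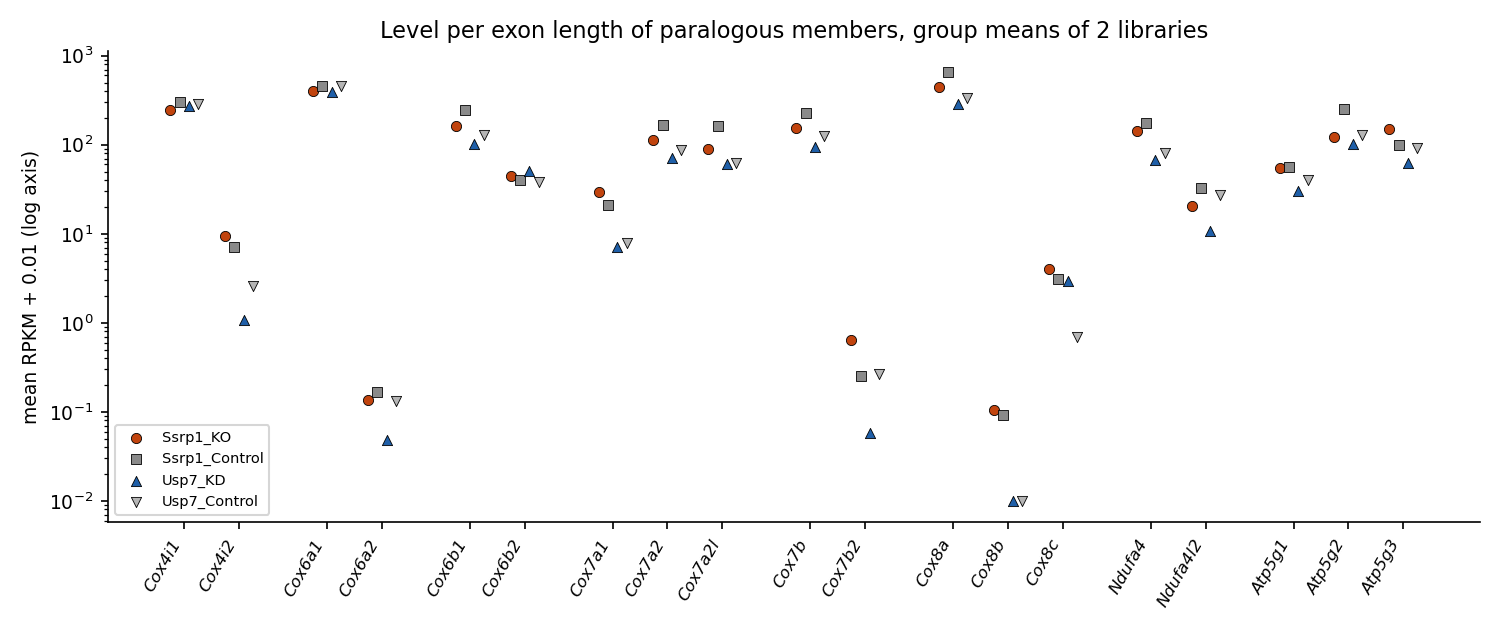
Level per exon length of paralogous members on a log axis (mean RPKM of 2 libraries per group, plus 0.01 so that 0 can be drawn), with 1 point per group in the order Ssrp1_KO, Ssrp1_Control, Usp7_KD and Usp7_Control. The muscle and testis forms Cox6a2, Cox7b2 and Cox8b lie below 1 RPKM in every group, and Cox4i1, Cox6a1 and Cox8a lie above 100 RPKM in every group.

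The promoters of the members were read from RefSeq sequences on GRCm38.p6, which covered 78 of the 98 members, with windows of 300 bases from 250 before to 50 after each gene's start. Nuclear respiratory factor 1 (Nrf1), ETS factors such as GABP, Yy1 and the estrogen-related receptors are known regulators of respiratory genes, and 1 motif of each was searched on both strands. The NRF1 motif was present in 17 of 67 subunit genes, or 25.4%, against 5.2% of all 27025 genes with a window. CCGGAAG, the ETS motif, was present in 16 of 67, or 23.9%, against 9.9% of all genes. The YY1 motif was found in 4 of 67 (6.0%, against 0.8%) and TCAAGGTCA, the estrogen-related receptor motif, in 2 of 67 (3.0%, against 0.5%). Of the 67 subunit genes, 32 held at least 1 of the 4 motifs, 6 held at least 2 of them, and in none did matches of different motifs overlap. The background was every gene with a window, expressed in these cells or not. It was not matched to the subunit genes for expression or GC content. A match is a description of these letters, not a site shown to be bound.

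Among the 4 motifs searched, NRF1 was found in the most subunit genes, by 1 more than ETS, and 7 of its matches, from complexes I, II, IV and V, are shown as windows of 30 bases on the gene's own strand, 5′ to 3′, with the 10 bases of the match in capitals. The motif allows any base at its sixth position. Their positions on GRCm38.p6 are chr5:115349056-115349085 on the minus strand for Cox6a1, chr11:115420041-115420070 minus for Atp5h, chr9:50603909-50603938 minus for Sdhd, chr17:56717692-56717721 plus for Ndufa11, chr13:74350319-74350348 minus for Sdha, chr16:37654540-37654569 minus for Ndufb4 and chr4:123718265-123718294 minus for Ndufs5. All 7 lie before the annotated start of their gene, by 60 (Ndufa11) to 191 bases (Ndufb4). They are a choice among the matches, and other matches lie closer to the start or after it. Examples are those beginning at -10 in Sdha and at 5 and 30 in Uqcrc1, relative to the start. The positions of the 7 therefore do not describe the matches as a whole.
Cox6a1: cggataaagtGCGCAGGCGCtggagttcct
Atp5h: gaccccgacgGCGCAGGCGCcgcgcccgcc
Sdhd: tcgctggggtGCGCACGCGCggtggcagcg
Ndufa11: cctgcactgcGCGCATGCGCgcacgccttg
Sdha: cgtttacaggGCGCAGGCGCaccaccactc
Ndufb4: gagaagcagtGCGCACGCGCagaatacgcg
Ndufs5: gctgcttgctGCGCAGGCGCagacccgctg

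The Ssrp1 comparison asked which members changed in cells with a targeted Ssrp1. Uqcrb, a small accessory subunit of complex III, rose 7.38-fold, and it was the only one of the 94 members tested that passed an adjusted p of 0.05 in edgeR's quasi-likelihood test. Over all 15757 genes tested, 3.39% were called higher and 0.324% lower, 3.71% in all, so 1 call among 94 members was below the background share. DESeq2 called 3 members, Uqcrb, Ndufaf1 and Atp5g2, and 7.04% of all genes. Of 80 subunits tested, 62 (77.5%) had a log2 change below 0, against 48.1% of all genes, with a median of -0.33 over subunits and 0.03 over all genes. At an unadjusted p under 0.05 there were 2 subunits higher and 7 lower, beside background shares of 13.3% higher and 4.95% lower. Both knockout libraries lay below both controls in 25 of the 80 subunits (31.2%, against 22.7% of all genes) and above both in 6 (7.5%, against 27.3%). The 4 members not tested were Cox6a2, Cox7b2, Cox8b and the second Atp5o identifier, all at 0 to 6 counts per library.

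The Usp7 comparison asked the same of cells depleted of Usp7. Ndufa4l2, a paralogue of Ndufa4 known as a hypoxia-induced gene, fell by 1.36 on the log2 scale and was the only member called among 94 tested, and no structural subunit was called, by edgeR or by DESeq2. The background was 2.36% of 15915 genes called higher and 0.628% called lower, 2.99% in all. Of 80 subunits tested, 74 (92.5%) had a log2 change below 0, against 51.6% of all genes, with a median of -0.26 over subunits and -0.02 over all genes. At an unadjusted p under 0.05, 2 subunits were higher and 7 lower, with background shares of 9.52% and 7.18%. Both knockdown libraries lay below both controls in 13 of the 80 (16.2%, against 23.4% of all genes) and above both in 2 (2.5%, against 24.6%). By sign alone, 60 of the 80 subunits were lower in both comparisons, and 4 were higher in both. Another 14 were lower in the Usp7 comparison only and 2 in the Ssrp1 comparison only. How many of all genes were lower in both was not counted, so these counts have no background share beside them.

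The negative medians went together with replicate 1 of each control group. Subunits lay above their own mean over the 4 libraries by a median of 0.44 (log2) in Ssrp1_Control replicate 1 and by 0.38 in Usp7_Control replicate 1, and the medians in the other 6 libraries ran from -0.27 to 0.03. Without Ssrp1_Control replicate 1 the median change of the 94 members was 0.02 in place of -0.29, and without Usp7_Control replicate 1 it was 0.02 in place of -0.26. Without Usp7_Control replicate 2, which leaves replicate 1 as the lone control, 56 members were called lower in the Usp7 comparison, where 22.5% of all genes tested were called. Short transcripts deviated the same way: the tenth of genes with the shortest exons had a median deviation of 0.16 in Ssrp1_Control replicate 1 and 0.12 in Usp7_Control replicate 1, and subunits are short, with a median exon length of 1522.5 bp against 3879 bp for all genes tested. The part of transcript length in the shift was not tested beyond a correction for length and GC content, under which the medians were -0.26 and -0.15.

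**Figure D2:**
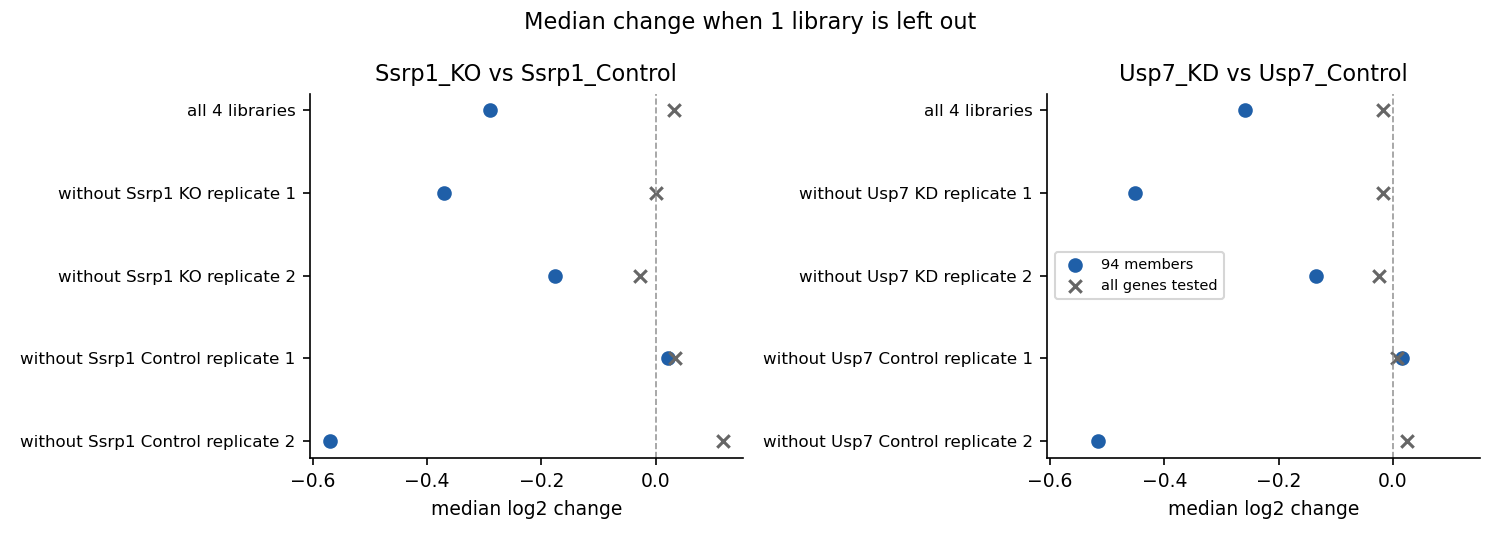
Median log2 change over the 94 members tested (blue points) and over all genes tested (grey crosses), with all 4 libraries and with each library left out in turn, for the Ssrp1 comparison (left) and the Usp7 comparison (right). The member median is at 0.02 without control replicate 1 in both experiments, and -0.57 (Ssrp1) and -0.52 (Usp7) without control replicate 2.

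Complex III held the member with the largest change of the Ssrp1 comparison. Uqcrb (chr13:66900617-66905378 on the minus strand, GRCm38) had 2792 and 1559 reads in Ssrp1_KO, against 201 and 410 reads in Ssrp1_Control. On the CPM scale these were 184 and 85.6 CPM in Ssrp1_KO, against 13.2 and 23.2 CPM in Ssrp1_Control. The groups did not overlap, and the knockout library with the lower value was still above both controls. The log2 change was 2.88 ± 0.42 (SE, n = 2 libraries per group), with an adjusted p of 0.00925. In the Usp7 experiment Uqcrb had 60.9 and 47.3 CPM in Usp7_KD, against 84.9 and 59.0 CPM in Usp7_Control, a log2 change of -0.41 ± 0.23 (adjusted p = 0.395). The knockout change minus the knockdown change was 3.26 ± 0.53 in a joint fit of the 8 libraries, with an adjusted p of 0.0230, where 1% of 17052 genes were called in either direction. Uqcrb was the only member called there. At an unadjusted p under 0.05, 5 of 94 members were higher in that difference, beside 9.19% of all genes, and none was lower, beside 5.95%. Of the 94, 56 (59.6%) were below 0, against 49.7% of all genes.

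Several facts bear on the value for Uqcrb. Its exons have a GC content of 41.3%, and the tenth of genes with the lowest GC content had a median log2 change of 1.05 in the Ssrp1 comparison. With a correction for GC content and length the change of Uqcrb was 1.98, with an adjusted p of 0.0327. Without Ssrp1_Control replicate 1 it was 2.52 with an adjusted p of 0.0688, and over all alternatives the adjusted p ran from 5.80e-16 to 0.0688. The difference between experiments missed the threshold without Ssrp1_Control replicate 1 or without any single Usp7 library, with adjusted p from 0.0516 to 0.190. Uqcrb has 3 near-identical annotated copies, which held 0 to 5 reads per library, and 5.7% of its exon bases overlap a gene on the opposite strand; the sources do not state whether counting used strand.

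Uqcrb was alone in complex III: the other 7 subunits all had log2 changes below 0 in the Ssrp1 comparison, and none was called. The lowest was Uqcrh, the hinge protein, with 154 and 110 CPM in Ssrp1_KO and 231.5 and 137 CPM in Ssrp1_Control (log2 change -0.48 ± 0.32). Uqcrfs1 had 167.5 and 140 CPM in Ssrp1_KO, below both Ssrp1_Control libraries at 208 and 197 CPM, with a log2 change of -0.40 ± 0.26 (adjusted p = 0.466). The core protein Uqcrc1 had 384 and 327.5 CPM in Ssrp1_KO and 410.0 and 311 CPM in Ssrp1_Control, so its groups overlapped. In the Usp7 comparison all 8 complex III subunits had a log2 change below 0, the lowest being Uqcr11 at -0.56 ± 0.28, with 47.0 and 36.7 CPM in Usp7_KD and 81.7 and 42.1 CPM in Usp7_Control. Uqcrc1 had 366 and 324 CPM in Usp7_KD, below the 560.0 and 389 CPM of Usp7_Control, at -0.46 ± 0.22 (adjusted p = 0.334).

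**Figure D3:**
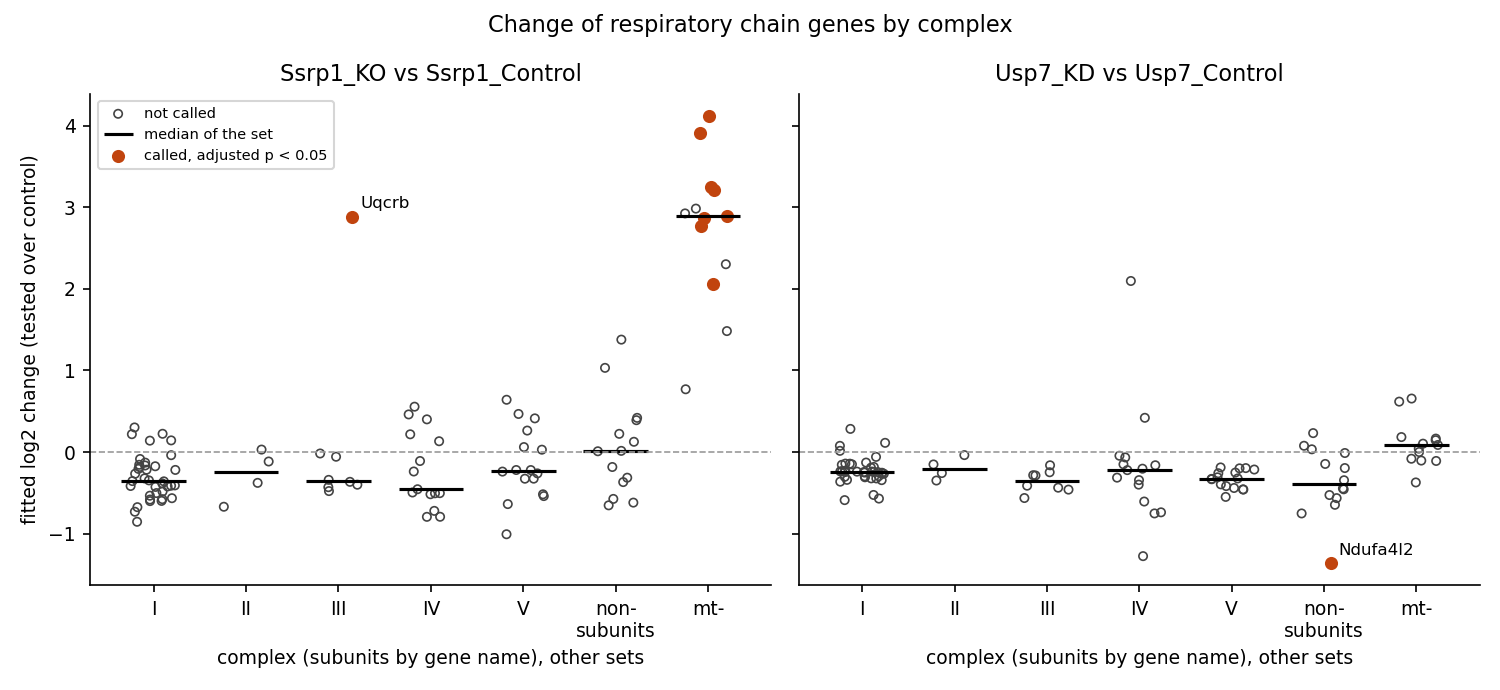
Fitted log2 changes of the subunits of complexes I to V, of the 14 members that are not structural subunits and of the 13 mt- coding genes, in the Ssrp1 comparison (left) and the Usp7 comparison (right). Open points missed and filled points passed an adjusted p of 0.05, and bars are medians of the genes tested. Uqcrb and 8 mt- genes are filled on the left, and Ndufa4l2 on the right.

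Complex I, with 37 subunits by name, all tested, had no called subunit in either comparison. In the Ssrp1 comparison 32 of the 37 were below 0, with a median of -0.36, and in the Usp7 comparison 33 of 37, with a median of -0.24. Ndufb4, an accessory subunit of the membrane arm, had the lowest value in the Ssrp1 comparison: 64.0 and 81.0 CPM in Ssrp1_KO against 162 and 100.5 CPM in Ssrp1_Control, a log2 change of -0.85 ± 0.31 (adjusted p = 0.159). Ndufa2, an accessory subunit of the matrix arm, had 46.5 and 44.7 CPM in Ssrp1_KO and 98.1 and 53.2 CPM in Ssrp1_Control (-0.73 ± 0.33, adjusted p = 0.269). In both genes the higher control value came from replicate 1. At the other end was Ndufs1, the large iron-sulfur subunit, with 176 and 140 CPM in Ssrp1_KO and 113 and 144 CPM in Ssrp1_Control (0.30 ± 0.27). In the Usp7 comparison the lowest value was that of Ndufv3 (-0.59 ± 0.25), and Ndufs7, an iron-sulfur subunit near the ubiquinone site, was also among the 3 lowest (-0.53 ± 0.21). The highest was Ndufb2 (0.28 ± 0.37), which had 3.27 and 4.39 CPM in Usp7_KD and 3.71 and 2.58 CPM in Usp7_Control.

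Core and defining subunits of complex I gave no call either. Ndufv1, which binds NADH, had 167 and 151.5 CPM in Ssrp1_KO and 269 and 176 CPM in Ssrp1_Control, and 160 and 143 CPM in Usp7_KD against 207 and 148 CPM in Usp7_Control. Ndufb8, often used as a marker of assembled complex I, had 97.0 and 91.5 CPM in Ssrp1_KO and 124 and 87.7 CPM in Ssrp1_Control. Its values were 80.4 and 63.4 CPM in Usp7_KD and 95.4 and 64.2 CPM in Usp7_Control, so that both pairs of groups overlapped.

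Ndufa4l2 (chr10:127514967-127517154 on the plus strand, GRCm38) was counted with complex I by name only. It had 239 and 204 reads in Usp7_KD, against 429 and 638 reads in Usp7_Control. Scaled, these were 13.2 and 11.2 CPM in Usp7_KD, against 25.3 and 37.5 CPM in Usp7_Control. Both knockdown libraries lay below both controls, and the log2 change was -1.36 ± 0.25 with an adjusted p of 0.0160. Without Usp7_KD replicate 2 the change was -1.24 with an adjusted p of 0.438, and without the filter on low counts the adjusted p was 0.105. In the Ssrp1 experiment the 2 knockout libraries differed widely, with 6.05 and 37.3 CPM in Ssrp1_KO and 28.3 and 38.4 CPM in Ssrp1_Control (log2 change -0.62 ± 0.61, adjusted p = 0.657). Ndufa4 itself, a subunit found in complex IV and placed with complex I here by name, had 106 and 91.5 CPM in Usp7_KD. In Usp7_Control it had 138 and 94.5 CPM.

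Assembly factors named Ndufaf or Sdhaf help to build complexes I and II without staying in them. None of the 12 was called in either comparison. In the Ssrp1 comparison Ndufaf1, an early complex I assembly factor, stood nearest to the threshold: 38.2 and 34.4 CPM in Ssrp1_KO, against 11.0 and 16.9 CPM in Ssrp1_Control. Both knockout libraries lay above both controls, as the plot of levels by library shows and as did 27.3% of all genes. The log2 change was 1.38 ± 0.35 with an adjusted p of 0.0541, and by DESeq2 the adjusted p was 0.00935. With the correction for GC content and length the change of Ndufaf1 was 1.05 (adjusted p = 0.143). It was 1.08 without Ssrp1_Control replicate 1. Ndufaf4 had 56.8 and 22.0 CPM in Ssrp1_KO and 19.8 and 18.7 CPM in Ssrp1_Control (1.03 ± 0.42, adjusted p = 0.224). Its 2 knockout libraries differed: without replicate 1 of the knockout the log2 change was 0.13, and with the correction for GC content and length it was -0.17. Ndufaf3 was the lowest, with 21.7 and 16.7 CPM in Ssrp1_KO and 38.9 and 21.5 CPM in Ssrp1_Control (-0.65 ± 0.37). In the Usp7 comparison 9 of the 12 were below 0, with a median of -0.40.

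Complex II is the one complex without a mitochondrially encoded subunit, and its 4 subunits were not called. Sdha had 284 and 250.1 CPM in Ssrp1_KO and 260.1 and 263 CPM in Ssrp1_Control, and 241 and 222.5 CPM in Usp7_KD against 273 and 242 CPM in Usp7_Control. Sdhb, the iron-sulfur subunit, had 94.3 and 95.7 CPM in Ssrp1_KO, below the 190 and 112.5 CPM of Ssrp1_Control (log2 change -0.67 ± 0.30, adjusted p = 0.271). It had 74.8 and 64.5 CPM in Usp7_KD and 97.9 and 79.5 CPM in Usp7_Control (-0.35 ± 0.19, adjusted p = 0.403). Both Sdhb pairs kept the treated libraries below both controls, as did 22.7% of all genes in the Ssrp1 comparison and 23.4% in the Usp7 comparison. The assembly factors of complex II had low counts. Sdhaf3 had 12.7 and 6.70 CPM in Ssrp1_KO and 7.81 and 6.97 CPM in Ssrp1_Control (0.39 ± 0.48). Sdhaf1 had 2.00 and 1.70 CPM in Usp7_KD and 4.12 and 2.11 CPM in Usp7_Control (-0.75 ± 0.44), and 69.6% of its exon bases overlap another gene.

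In complex IV, 15 of the 18 subunits were tested and none was called, though Cox6c passed in the Usp7 comparison with the correction for GC content and length (adjusted p = 0.0480). Of all members, 3 had an unadjusted p under 0.05 in both comparisons. They were Cox6c and Cox7c, both small nuclear subunits, and Atp5g3 of complex V, which was higher for Ssrp1 and lower for Usp7. How many of all genes passed in both was not counted. Cox6c had 132 and 151 CPM in Ssrp1_KO, against 282 and 184 CPM in Ssrp1_Control, and 66.6 and 49.3 CPM in Usp7_KD, against 116 and 79.4 CPM in Usp7_Control. Treated libraries were below both controls each time, with log2 changes of -0.72 ± 0.29 (adjusted p = 0.216) for Ssrp1 and -0.75 ± 0.23 (adjusted p = 0.126) for Usp7. Cox7c had 346 and 309.8 CPM in Ssrp1_KO against 723 and 414 CPM in Ssrp1_Control, a log2 change of -0.79 ± 0.32 (adjusted p = 0.221). In the Usp7 experiment it had 204 and 157.5 CPM in Usp7_KD against 329 and 221 CPM in Usp7_Control, a log2 change of -0.61 ± 0.23 (adjusted p = 0.219). Without Ssrp1_Control replicate 1 the Ssrp1 changes were -0.40 for Cox6c and -0.36 for Cox7c. The 2 experiments have separate control libraries.

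Other complex IV genes had separated groups in 1 experiment and missed the threshold there. Cox5a, a subunit facing the matrix, had 125 and 105 CPM in Usp7_KD, against 253 and 131 CPM in Usp7_Control (log2 change -0.74 ± 0.28, adjusted p = 0.205), and 184 and 233 CPM in Ssrp1_KO among Ssrp1_Control values of 225 and 155 CPM. Cox7a2l, which takes part in joining complexes III and IV into supercomplexes, had 105 and 150.4 CPM in Ssrp1_KO, below the 254 and 189 CPM of Ssrp1_Control (-0.79 ± 0.29, adjusted p = 0.173). Its values in the Usp7 experiment overlapped, at 103 and 83.2 CPM in Usp7_KD and 107 and 85.0 CPM in Usp7_Control. Cox7a1 had 13.8 and 17.01 CPM in Ssrp1_KO, above 12.7 and 8.33 CPM in Ssrp1_Control (0.56 ± 0.40, adjusted p = 0.523). Cox4i1, the most abundant form of subunit IV, had 357 and 382 CPM in Ssrp1_KO and 547.5 and 325 CPM in Ssrp1_Control, and 483 and 404 CPM in Usp7_KD against 575 and 353 CPM in Usp7_Control, with overlap in both.

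Among structural subunits, paralogues of complex IV held the extremes of the Usp7 comparison, and none was called. Cox8c, known from testis, had 22 and 29 reads in Usp7_KD, against 9 and 2 reads in Usp7_Control. This gave a log2 change of 2.10 ± 0.67, the highest of any member in that comparison, with an adjusted p of 0.140. It was 3.51 without Usp7_Control replicate 1 and 1.39 without Usp7_Control replicate 2. Cox4i2 had 14 and 18 reads in Usp7_KD and 25 and 48 reads in Usp7_Control (-1.28 ± 0.51, adjusted p = 0.232), and 5.86 and 8.67 CPM in Ssrp1_KO against 5.58 and 4.98 CPM in Ssrp1_Control (0.46 ± 0.49, adjusted p = 0.683). Cox6b2 had 60.03 and 57.9 CPM in Usp7_KD, above 43.8 and 44.4 CPM in Usp7_Control, with a log2 change of 0.42 ± 0.18 and an adjusted p of 0.274. In Cox8c and Cox6b2 both knockdown libraries lay above both controls, which was so for 24.6% of all genes tested.

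**Figure D4:**
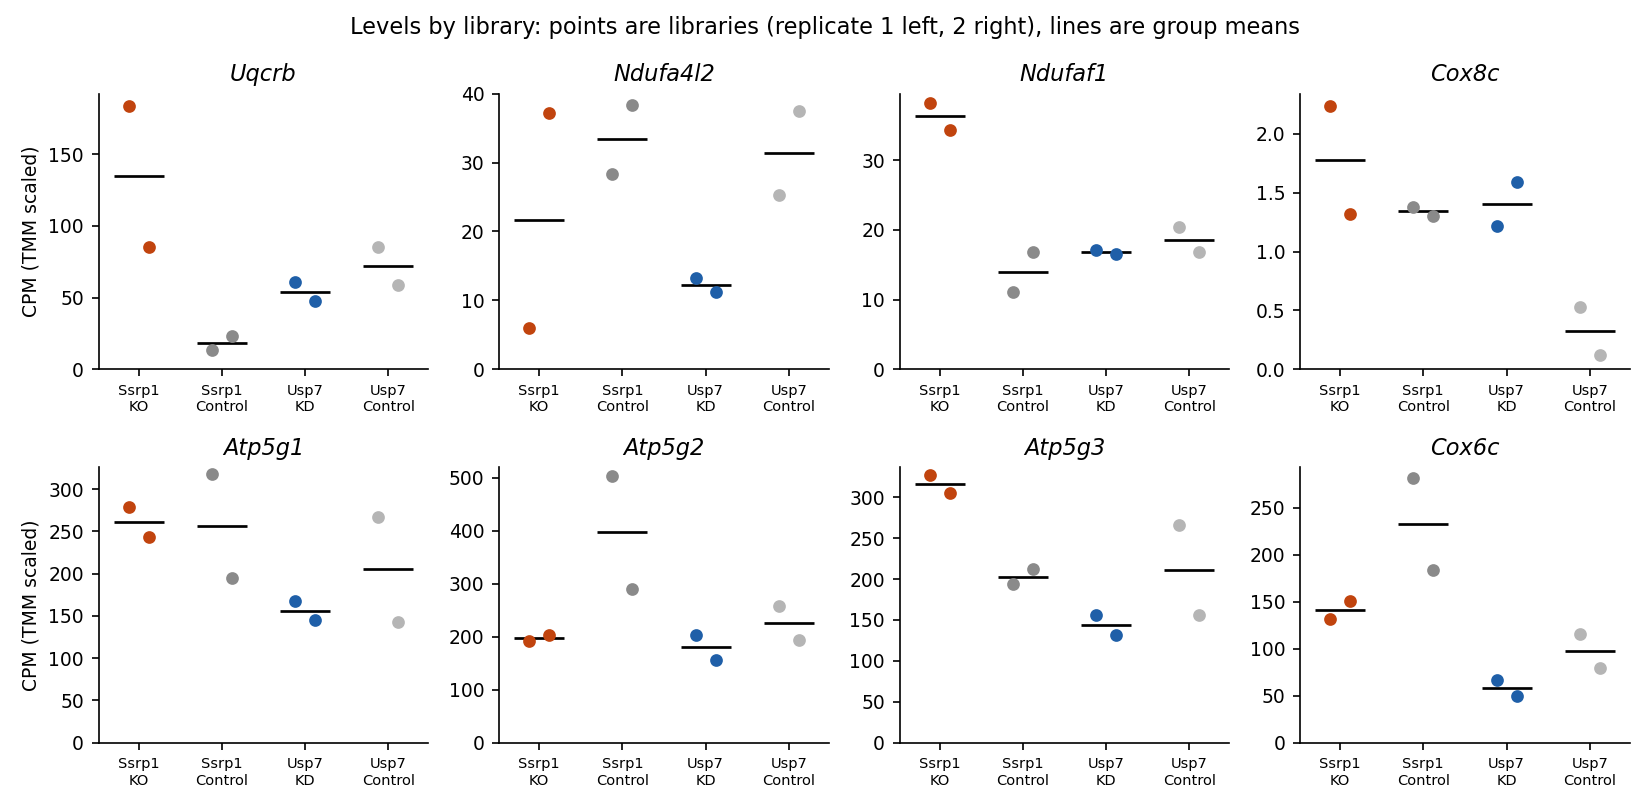
CPM values of 8 members by library (replicate 1 left and replicate 2 right within each group, line at the group mean, axes from 0). Uqcrb, Ndufaf1 and Atp5g3 lie above both controls in both Ssrp1_KO libraries, Atp5g2 and Cox6c below both, and Ndufa4l2 lies below both controls in both Usp7_KD libraries.

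Complex V held 17 subunit entries, of which 16 were tested and none was called. The alpha subunit Atp5a1 had 1568 and 1472 CPM in Ssrp1_KO and 1943 and 1646 CPM in Ssrp1_Control (log2 change -0.24 ± 0.32), and 1395 and 1197 CPM in Usp7_KD against 1638 and 1369 CPM in Usp7_Control (-0.21 ± 0.23). The beta subunit Atp5b had 2538 and 2704 CPM in Ssrp1_KO and 3712 and 2862 CPM in Ssrp1_Control (-0.33 ± 0.35), and 2292 and 1985 CPM in Usp7_KD against 2831 and 2261 CPM in Usp7_Control (-0.25 ± 0.25). All of these had adjusted p-values of 0.658 to 0.758. In the Usp7 comparison all 16 subunits were below 0, from -0.55 for Atp5g3 to -0.19 for Atp5l.

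Atp5g1, Atp5g2 and Atp5g3 encode the same mature c subunit, whose ring turns in the membrane as protons pass, and their fitted changes had different signs in the Ssrp1 comparison, with none called. Atp5g3 had 327 and 306 CPM in Ssrp1_KO, against 194 and 212 CPM in Ssrp1_Control, a log2 change of 0.64 ± 0.26 (adjusted p = 0.224). Atp5g2 had 192 and 203 CPM in Ssrp1_KO, against 503 and 291 CPM in Ssrp1_Control, a log2 change of -1.01 ± 0.31 (adjusted p = 0.108). Atp5g1 had 279 and 244 CPM in Ssrp1_KO, within the 317 and 195 CPM of Ssrp1_Control. By DESeq2 Atp5g2 passed the threshold (adjusted p = 0.0426). With the correction for GC content and length Atp5g2 was at -0.82 (adjusted p = 0.147) and Atp5g3 at 0.39 (adjusted p = 0.42). Without Ssrp1_Control replicate 1 they were at -0.58 and 0.56. In the Usp7 experiment Atp5g3 had 156 and 132 CPM in Usp7_KD against 266 and 156 CPM in Usp7_Control (-0.55 ± 0.25, adjusted p = 0.297), and Atp5g2 had 204 and 156 CPM in Usp7_KD against 258 and 194 CPM in Usp7_Control (-0.33 ± 0.22, adjusted p = 0.488). For Atp5g3 the knockout change minus the knockdown change was 1.14 ± 0.37 (adjusted p = 0.175). Atp5j, the coupling factor, had 199 and 140 CPM in Ssrp1_KO, above the 135 and 110 CPM of Ssrp1_Control (0.47 ± 0.28, adjusted p = 0.430).

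Atp5g3 and Sdhd were the 2 subunit genes with the estrogen-related receptor motif. The 250 bases before the start of Atp5g3 (chr2:73911327-73911576 on the minus strand, GRCm38.p6) are shown because this gene had the highest log2 change of complex V in the Ssrp1 comparison. The capitals mark the motif on the opposite strand, 52 bases before the start.
Atp5g3: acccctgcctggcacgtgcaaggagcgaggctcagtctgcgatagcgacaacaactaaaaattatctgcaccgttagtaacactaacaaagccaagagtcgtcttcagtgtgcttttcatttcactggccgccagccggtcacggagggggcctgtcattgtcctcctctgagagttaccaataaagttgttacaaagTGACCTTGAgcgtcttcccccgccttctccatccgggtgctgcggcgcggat
The 2 genes with that motif had a median log2 change of 0.26 in the Ssrp1 comparison, against -0.36 for the 63 without, and -0.29 against -0.27 in the Usp7 comparison. In the Ssrp1 comparison the 2 went opposite ways, with Atp5g3 at 0.64 and Sdhd at -0.12. Both also held an NRF1 match, and Sdhd an ETS match. For the YY1 motif the medians were -0.25 with a match (4 genes) and -0.36 without (61 genes) in the Ssrp1 comparison, and -0.42 with and -0.26 without in the Usp7 comparison. For the NRF1 motif they were -0.33 with a match (17 genes) and -0.38 without (48 genes) in the Ssrp1 comparison, and -0.25 with and -0.28 without in the Usp7 comparison. None of these splits was tested. For the ETS motif the medians were -0.34 with a match (16 genes) and -0.36 without (49 genes) in the Ssrp1 comparison, and -0.29 with and -0.25 without in the Usp7 comparison. Esrrb, an estrogen-related receptor of pluripotent cells, had 544 and 474 CPM in Ssrp1_KO against 848 and 702 CPM in Ssrp1_Control, and was not called (adjusted p = 0.303).

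The 13 mt- coding genes, which encode the mitochondrial subunits of complexes I, III, IV and V, were called far more often than the nuclear members in the Ssrp1 comparison. Of the 13, 8 rose and none fell, beside 3.39% of all genes called higher and 0.324% called lower, and their median log2 change was 2.89, against -0.33 for the nuclear subunits. mt-Co1, the catalytic subunit of complex IV, had 22110 and 12580 CPM in Ssrp1_KO, against 2216 and 2456 CPM in Ssrp1_Control (2.89 ± 0.47, adjusted p = 0.0133). mt-Cytb, the mitochondrial subunit of complex III, had 7896 and 1587 CPM in Ssrp1_KO, against 620.1 and 402 CPM in Ssrp1_Control (3.21 ± 0.65, adjusted p = 0.0250). mt-Nd1 of complex I rose by 2.87 ± 0.63 (adjusted p = 0.0343) and mt-Atp6 of complex V by 2.06 ± 0.49 (adjusted p = 0.0446). mt-Nd4 had 5361 and 1155 CPM in Ssrp1_KO against 559 and 763 CPM in Ssrp1_Control (2.30 ± 0.59, adjusted p = 0.0590). Every called gene was higher in both libraries labelled Ssrp1_KO than in both controls.

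These values depend on the library and on base composition. The library labelled Ssrp1_KO replicate 1, in which Ssrp1 was at 399.6 CPM and so close to the controls, had 7.31% of its counts on the mitochondrial chromosome, and replicate 2, with Ssrp1 at 119.7 CPM, had 2.81%, against 0.732% and 0.776% in Ssrp1_Control. Without Ssrp1_KO replicate 1 the median log2 change of the mt- genes was 1.21, and without Ssrp1_KO replicate 2 it was 3.61. Leaving out a control moved it less, to 2.99 without Ssrp1_Control replicate 1 and 2.70 without Ssrp1_Control replicate 2. The mt- coding genes have a median GC content of 37.1%. With the correction for GC content and length their median change was 0.88 and 3 were called, beside 1.21% of all genes. mt-Co3 had 5133 and 2271 CPM in Ssrp1_KO, against 266 and 227 CPM in Ssrp1_Control (3.91 ± 0.46, adjusted p = 0.00550). The counts of mt-Co3, mt-Co2 and mt-Nd4l (0.77 ± 0.44) are uncertain, since for each of them 1 annotated nuclear gene had a count within 20% of theirs. The counts of mt-Atp6, mt-Nd3 and mt-Nd4 are uncertain too, as each has a near-identical annotated copy with reads. That of mt-Atp6 held 106258 and 32309 reads in Ssrp1_KO, against 17287 and 14074 reads in Ssrp1_Control. The copy of mt-Nd3 held 9818 and 2073 reads in Ssrp1_KO, against 412 and 302 reads in Ssrp1_Control. For mt-Nd4 the copy held 29556 and 2718 reads in Ssrp1_KO, against 2798 and 3128 reads in Ssrp1_Control. In the Usp7 comparison no mt- gene was called by edgeR or DESeq2, 2 had an unadjusted p under 0.05, and the median log2 change was 0.09. In edgeR, 1 was called with the correction for GC content and length, where 5.2% of all genes were called. The median change of the mt- genes for Usp7 was 0.45 without Usp7_Control replicate 1 and -0.20 without Usp7_Control replicate 2. mt-Co1 had 8544 and 7038 CPM in Usp7_KD and 8405 and 6108 CPM in Usp7_Control.

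The nuclear and mitochondrial shares of the chain were set against each other as the summed counts of the 84 nuclear subunits divided by those of the 13 mt- genes. The ratio was 0.198 and 0.546 in Ssrp1_KO, against 2.64 and 2.07 in Ssrp1_Control. It was 0.480 and 0.498 in Usp7_KD, against 0.619 and 0.655 in Usp7_Control. Neither pair of groups overlapped, and the geometric mean ratio was 7.12-fold lower in Ssrp1_KO (log2 difference -2.83) and 1.3-fold lower in Usp7_KD (log2 difference -0.38). The exact two-sided permutation p was 0.333 for both, which is the smallest that 2 against 2 libraries can give. The nuclear subunits took 1.41% and 1.5% of all counts in Ssrp1_KO and 1.84% and 1.51% in Ssrp1_Control. The mt- sum was 1127942 and 463425 reads in Ssrp1_KO against 115352 and 122422 reads in Ssrp1_Control.

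**Figure D5:**
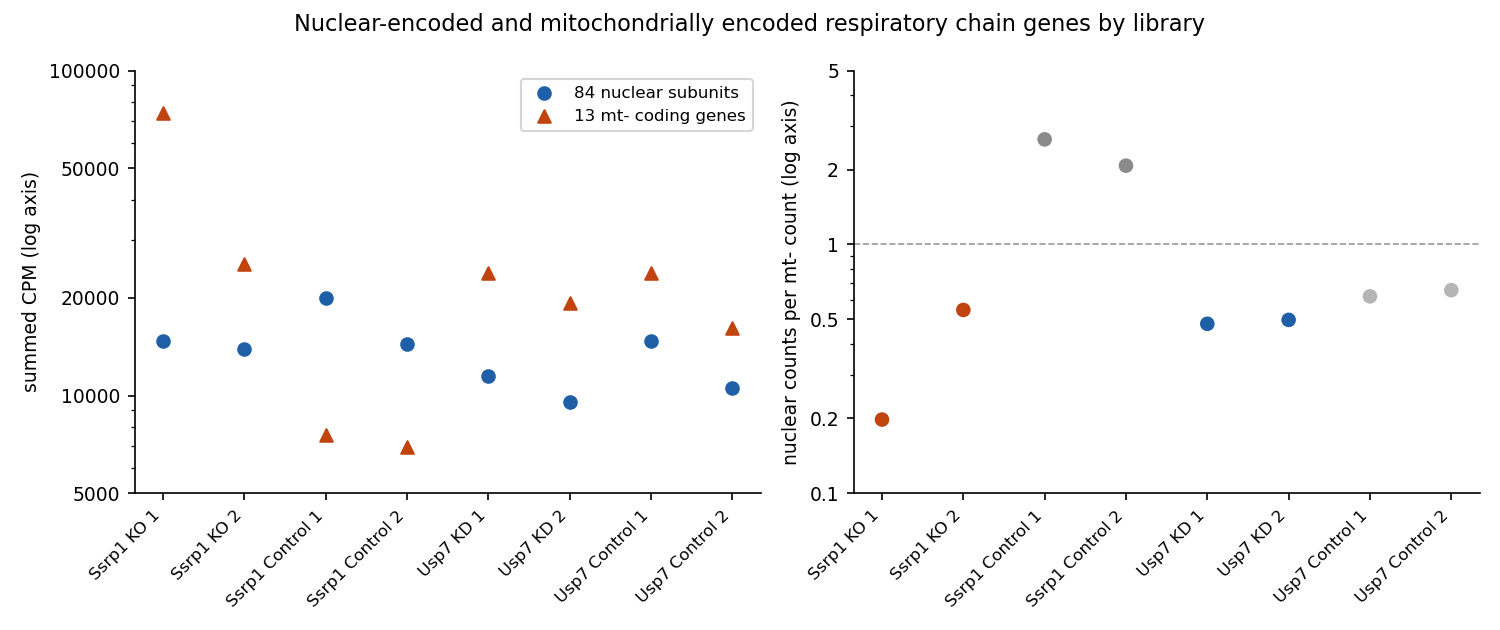
Left, summed CPM of the 84 nuclear subunits (circles) and the 13 mt- coding genes (triangles) in each library on a log axis. Right, nuclear counts per mt- count in each library on a log axis, with a line at 1. The 2 Ssrp1_Control libraries are the ones above the line, and the Ssrp1_KO libraries stand at 0.198 and 0.546.

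Within each complex the ratio followed the same order in the Ssrp1 experiment. For complex I there were 0.108 and 0.479 nuclear counts per mt- count in Ssrp1_KO, against 1.38 and 1.05 in Ssrp1_Control. For complex III, whose nuclear sum includes Uqcrb, the ratio was 0.184 and 0.726 in Ssrp1_KO, against 2.59 and 2.96 in Ssrp1_Control. For complex IV it was 0.0693 and 0.150 in Ssrp1_KO, against 1.37 and 0.803 in Ssrp1_Control, and for complex V 1.43 and 4.04 in Ssrp1_KO, against 9.90 and 10.7 in Ssrp1_Control. In each of these 4 complexes the lowest ratio was that of the library labelled Ssrp1_KO replicate 1, whose Ssrp1 transcript was close to the controls. In the Usp7 experiment the ratios of complexes I, III, IV and V were all lower in both Usp7_KD libraries than in both controls. For complex III they were 0.301 and 0.318 in Usp7_KD against 0.435 and 0.481 in Usp7_Control. For complex V the groups nearly touched, at 3.151 and 3.358 in Usp7_KD against 3.374 and 4.087 in Usp7_Control.

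Other genes of mitochondrial function were counted from lists. Of 19 genes of mitochondrial DNA expression, 1 was called in the Ssrp1 comparison, where 3.71% of all genes were called. Their median log2 change was 0.30, and 3 of the 19 were below 0, against 48.1% of all genes. Pnpt1, the polynucleotide phosphorylase of mitochondria, rose, with 106 and 66.3 CPM in Ssrp1_KO against 16.5 and 20.5 CPM in Ssrp1_Control (2.22 ± 0.33, adjusted p = 0.0104). Of 77 mitochondrial ribosomal protein genes tested, 1 was called, again beside 3.71% of all genes: Mrps30 rose, with 64.6 and 56.0 CPM in Ssrp1_KO against 12.9 and 24.1 CPM in Ssrp1_Control (1.70 ± 0.35, adjusted p = 0.0293). Neither passed the test without Ssrp1_Control replicate 1 (adjusted p = 0.108 for Pnpt1 and 0.326 for Mrps30), and Mrps30 did not with the correction for GC content and length (adjusted p = 0.101). The median of the mitochondrial ribosomal list was -0.21 for Ssrp1 and -0.22 for Usp7, beside -0.33 and -0.26 for the respiratory subunits.

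No gene was called by edgeR in either comparison among 8 electron carriers and further subunits such as Cyc1 and Cycs, 35 tested assembly factors with other names, 13 tested nuclear regulators of respiratory genes, 17 genes of the tricarboxylic acid cycle and 17 genes of mitochondrial mass and import. At an unadjusted p under 0.05 these 5 lists held 4 genes higher and 1 lower in the Ssrp1 comparison, where 13.3% of all genes were higher and 4.95% lower. For Usp7 they held 2 higher and 8 lower, where 9.52% of all genes were higher and 7.18% lower. The 83 cytosolic ribosomal protein genes had a median of -0.69 for Ssrp1, with 77 below 0 and 1 called higher, beside 3.39% of all genes. For Usp7 their median was -0.30, with 80 below 0 and 1 called lower, beside 0.628% of all genes. At an unadjusted p under 0.05, 33 were lower and 1 higher for Ssrp1, and 4 lower and 0 higher for Usp7. Treated libraries lay below both controls in 79.5% of them for Ssrp1 (22.7% of all genes) and 26.5% for Usp7 (23.4% of all genes). The cause was not tested.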

How the data were processed

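Gene-level RNA-seq counts of 8 libraries were used as deposited by the authors, in 1 table per experiment. Per the submitters' processing notes, cutadapt, HISAT2 and featureCounts were used with mm10. The notes name no version of these tools; which annotation release and strand setting were used, and how multi-mapping reads were counted, is not given in the sources used here. Per the labels' protocols, DNase-treated total RNA went into an mRNA-seq kit with random primers. All 92 spike-in entries were at 0 counts and were left out. Symbols, exon lengths and GC content came from GENCODE M21 (GRCm38), which lacked 67 of the listed identifiers.

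The 4 libraries of each experiment were fitted separately by edgeR 4.0.16, run in R 4.3.3 (filterByExpr with a minimum count of 10, TMM, quasi-likelihood F test), and p-values were adjusted by Benjamini-Hochberg over all genes tested, with calls at an adjusted p of 0.05. SE is the absolute log2 change divided by the square root of F. The change of Ssrp1 minus that of Usp7 came from 1 fit of all 8 libraries. CPM are on the TMM scale of each experiment and RPKM on that of all 8 libraries. Alternatives were size factors, DESeq2 1.42.0, no filter, smooth curves for GC content and exon length (mgcv 1.9.3), mitochondrial genes left out, a replicate block and single libraries left out. The code was tested on simulated data.

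Members and lists were chosen with earlier results of these data known. Named genes were called members, core subunits, isoform pairs, the extremes and the 2 highest genes of each complex, assembly factors, and 1 or 2 mt- genes per complex. One core subunit is not reported here.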

Additional observations from a re-analysis of the deposited data

Results flagged for a closer look

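The 2 experiments differed, by a test of the difference itself in edgeR, in 5 genes named above. The Ssrp1 change minus the Usp7 change was 3.26 for Uqcrb (adjusted p = 0.0230), 2.56 for Pnpt1 (adjusted p = 0.0132) and 2.07 for Mrps30 (adjusted p = 0.0470) on the log2 scale. Among the mt- genes it was 3.82 for mt-Co3 (adjusted p = 0.0132) and 2.74 for mt-Co1 (adjusted p = 0.0290). All 5 were higher in both libraries labelled Ssrp1_KO than in both of their controls. None of the 5 passed without Ssrp1_Control replicate 1, without Usp7_Control replicate 1 or without either Usp7_KD library, where the adjusted p ran from 0.0647 for mt-Co3 to 0.330 for Mrps30 and 1 to 18 genes were called in all. Without Usp7_Control replicate 2 only mt-Co3 passed of the 5 (adjusted p = 0.0317), and without Ssrp1_Control replicate 2 all but mt-Co1 passed (adjusted p = 0.0522 for mt-Co1). With the correction for GC content and length Mrps30 was at 1.51 (adjusted p = 0.0895), mt-Co1 at 1.62, mt-Co3 at 2.49 and Pnpt1 at 1.60.

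In Cox4i2 and Ndufaf7 both Ssrp1_KO libraries lay above both of their controls and both Usp7_KD libraries below theirs, but the test of the difference did not pass. Cox7b2 had the same pattern at 0 to 6 reads per library and was not tested. How many of all genes have this pattern was not counted. For Cox4i2 the difference was 1.68 (adjusted p = 0.253). For Ndufaf7, a complex I assembly factor, it was 0.82 (adjusted p = 0.249), with 38.7 and 38.4 CPM in Ssrp1_KO against 26.9 and 30.8 CPM in Ssrp1_Control, and 14.4 and 13.6 CPM in Usp7_KD against 18.6 and 19.6 CPM in Usp7_Control. Groups of 2 libraries allow no test for a single library that stands apart.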

How the results depend on the processing

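Among members, 1 was called in each comparison, and 1 for the difference. In the Ssrp1 comparison the count was 3 by DESeq2, 3 without the filter, 2 with the replicate block, 5 with the replicate block plus the GC and length correction, and 0 to 4 with single libraries left out. In the Usp7 comparison it was 0 without the filter, 2 with the GC and length correction, 6 with the replicate block (Ndufa4l2, Ndufv3 with adjusted p = 0.0478, Cox5a 0.00999, Cox6c 0.00406, Cox7c 0.0297 and Cox8c 0.0187), 8 with the block plus that correction (also Cox6b2 and Atp5g3), and 0 to 56 with single libraries left out. For the difference it was 2 by DESeq2, 2 without the filter, 1 with the replicate block, and 0 to 3 with single libraries left out. The member median ran from -0.57 to 0.0215 (Ssrp1) and from -0.52 to 0.0158 (Usp7) with single libraries left out, and the Usp7 ratio was -0.57 with medians in place of sums. In the Ssrp1 comparison the sign turned with the GC and length correction, and with that plus the block, for Ndufaf4 (-0.17 and -0.20), Ndufs1 (-0.13 and -0.14), Sdhaf3 (-0.63 and -0.62) and mt-Nd4l (-0.20 and -0.27). With single libraries left out it turned for Sdhaf3 (-0.20 to 0.78), mt-Nd4l (-0.34 to 1.36) and Ndufa4l2 (-2.47 to 0.10). The cause of these changes was not tested. Same-numbered libraries correlated at 0.17 (Ssrp1) and 0.18 (Usp7) in their deviations, but with 2 pairs the numbers are not shown to pair libraries. Genes called over all tested were 585 for Ssrp1 (1109 by DESeq2, 1497 without the filter, 191 with the GC and length correction, 988 with the replicate block), 476 for Usp7 (100 without the filter, 828 with the correction, 1471 with the block) and 171 for the difference (673 by DESeq2, 945 without the filter, 525 with the block). With single libraries left out these were 20 to 1884 (Ssrp1), 42 to 3770 (Usp7) and 1 to 1109 (difference). With the replicate block 2 mt- genes were called in the Usp7 comparison.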
